A study of Mus musculus with 14 samples.

Results

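The clustered histone genes are the many small genes, named Hist1 to Hist4 after the cluster they lie in, that code for the linker histone H1 and for the core histones H2A, H2B, H3 and H4. They were taken from the deposited expression table by name, as every row whose gene symbol begins with Hist1h, Hist2h, Hist3h or Hist4h, which gave 68 of the 24016 transcripts. 54 of them belong to Hist1, 10 to Hist2, 3 to Hist3 and 1 to Hist4. By family, 6 code for H1, 18 for H2A, 19 for H2B, 12 for H3 and 13 for H4.

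Core histones form the spools on which DNA is wound, and linker histones sit where the DNA enters and leaves a spool. Most genes of these clusters are transcribed while DNA is copied in S phase, have no introns, and yield mRNAs that end in a short stem-loop bound by the protein Slbp instead of a poly(A) tail. Some clustered genes can also be read through to a downstream poly(A) site, and the mRNA then carries a tail, a form described in cells that have left the cell cycle. Replacement histones, such as those of H3f3a and H2afz, come from genes outside the clusters whose mRNAs have a poly(A) tail throughout the cycle.

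The cells were C2C12, mouse myoblasts kept as a line, which leave the cell cycle and fuse into myotubes when serum is lowered. Cells were transfected with control siRNA (siCtrl) or with a pool of siRNAs against Klf5 (siKlf5), moved to differentiation medium with 2% horse serum, and collected on days 0, 1, 2 and 3. Each combination of siRNA and day gave 1 library (8 in all) of RNA pulled down with oligo-dT beads, and how much histone mRNA without a tail stayed on the beads cannot be told from the data. The 6 samples of chromatin immunoprecipitation and its input in the same series were not analysed here.

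Klf5, the transcription factor targeted by the siRNA, was at 224, 381, 614 and 933 FPKM in siCtrl cells on days 0 to 3, and at 35.1, 159.6, 192 and 211 FPKM in siKlf5 cells. Klf5 was thus lower in the siKlf5 library of each of the 4 days. FPKM here is reads per kilobase of exon with the library scaled to a total of 10000000, as the authors set it, so its values exceed ordinary FPKM. The libraries held between 7850497 and 20301506 reads on transcripts, of which the clustered histone genes took between 0.031% and 0.0514%. Ckm, the muscle creatine kinase, was at 21.0 and 19.9 FPKM on day 0 and at 1094 and 1096 on day 3, and 7 of 8 muscle markers rose by day 3. Of 7 markers of leukocytes, endothelium, epithelium, adipocytes and Schwann cells, 6 had a mean under 1 FPKM, and the other, Ngfr, was at 11.7 and 11.5 on day 0 and at 0 on day 3.

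Sequence at the 3′ end showed which form of mRNA the annotated models describe. A histone stem-loop of 16 bases lay within 60 bases of the annotated end in 58 of the 68 genes, and in 1 of the other 23883 transcripts searched (0.00419%). In 43 genes the model ended exactly 5 bases after it. The poly(A) signal AATAAA lay in the last 60 bases of 1 gene, Hist2h2be (1.47% of the genes), against 54.6% of the other transcripts. The ends below are shown for 4 genes whose RNA was higher on day 3 than on day 0 and 4 whose RNA was lower, with the stem-loop in capitals, read 5′ to 3′ on the gene's strand from the mm9 genome.
Hist1h2bc: caaaGGCTCTTTTCAGAGCCacccactttc
Hist1h1c: aaaaGGCTCTTTTCAGAGCCaccactccca
Hist2h2aa2: aaaaGGCTCTTTTCAGAGCCacccactgaa
Hist3h2a: caaaGGCTCTTTTCAGAGCCacccacaacc
Hist1h3h: caaaGGCTCTTTTCAGAGCCacccaaacct
Hist1h2af: caaaGGCTCTTTTCAGAGCCaccacttctt
Hist1h4d: caaaGGCCCTTTTCAGGGCCactaccttct
Hist1h4c: aaaaGGCCCTTTTCAGGGCCacccacaaat
These lie at chr13:23776512-23776541 (plus strand), chr13:23831377-23831406 (plus), chr3:96043697-96043726 (minus), chr11:58768670-58768699 (plus), chr13:21809960-21809989 (plus), chr13:23626224-23626253 (plus), chr13:23673815-23673844 (plus) and chr13:23789948-23789977 (minus), in that order. All 8 are at the 3′ end of the last annotated exon and run a few bases beyond it. The 4 genes that were higher and the H3 and H2A genes that were lower carried the same 16 bases, so the stem-loop itself did not separate them. Over all genes this form, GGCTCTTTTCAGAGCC, was found in 37, and 9 others had an A in the loop in place of C (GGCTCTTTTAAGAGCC). The form of the H4 genes shown, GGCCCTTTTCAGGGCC, was found in 7 genes, all of H4.

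Copies of these genes are alike enough to share reads, which limits what a value for 1 gene means. 41 of the 68 genes had at least as many windows of 50 bases that also occurred in another of the genes as windows of their own. The median share was 69.2% in H3 and 66.9% in H2A but 9.55% in H1. 9 genes have 2 copies in the genome or a partner on the opposite strand at the same place, so that Hist2h2aa1 with Hist2h2aa2, Hist2h3c1 with Hist2h3c2, Hist1h2ap with Hist1h2ao, and Hist1h2bq with Hist1h2br carry largely the same reads and cannot be told apart. Hist1h4n has 2 copies too and shares reads with other H4 genes. Hist1h1c shared 19.1% of its windows and Hist3h2a 9.15%, so these values are mostly their own. Hist1h2bc shared 77.1%, most of it with Hist1h2bg.

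Levels differed widely between members. 43 of the 68 genes had reads in all 8 libraries, 22 were at 0 in some and 3 were at 0 in all, namely Hist1h1t, Hist1h2aa and Hist1h2ba, which code for histones of the testis. 64 genes had a mean of at least 1 FPKM and were fitted, and 9 had a mean of at least 100 FPKM. The other gene below that filter was Hist3h2bb-ps. Per kilobase, and with only the higher row of each pair that shares reads, the highest mean levels were those of Hist2h2aa1 (385 FPKM), Hist1h2ap (364), Hist1h1c (326), Hist1h2bc (247) and Hist2h3c2 (215). The highest H4 gene was Hist1h4n, at 90.5 FPKM. The median member had between 12.5 reads (siKlf5, day 1) and 41.5 reads (siCtrl, day 0) per library, and reads often came in sets of 6, so most single values rest on few fragments.

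The families moved apart over the 4 days. The summed level of the H4 genes was 758, 298, 294 and 145 FPKM in siCtrl cells on days 0 to 3, and 766, 187, 387 and 331 in siKlf5 cells. Both day 0 libraries thus lay above all 6 later ones. The summed level of the H1 genes was 288, 204, 443 and 513 in siCtrl cells and 238, 311, 529 and 630.1 in siKlf5 cells. For H1 the 4 libraries of days 2 and 3 lay above the 4 of days 0 and 1, and Hist1h1c made up most of the sum. The H2B genes were lowest on day 1 with each siRNA, at 474 and 547, and stood at 992 and 1021 on day 3 against 699 and 685 on day 0. These sums count every row, and so count the reads of the pairs named above more than once. With every row, the H3 and H2A sums of siKlf5 day 3, at 934 and 2332, lay above those of siCtrl day 0, at 840.0 and 2249. With 1 row of each pair, a count chosen after seeing the data, both day 0 libraries lay above all 6 later ones also for H3, at 679 and 897 against at most 608, and for H2A, at 1489 and 1784 against at most 1459.8. As a share of the level on day 0, the day 3 sum was 0.191 for H4 in siCtrl cells and 0.432 in siKlf5 cells, against 1.42 and 1.49 for H2B. RNAs that are made without a poly(A) tail, looked at after the values of the members were known, were also lower on day 3. The 114 small nucleolar and Cajal body RNAs, summed, stood at 0.416 and 0.437 of day 0 in siCtrl and siKlf5 cells, Rmrp, the RNA of RNase MRP, at 0.452 and 0.879, and Rpph1, the RNA of RNase P, at 0.426 and 0.956. The part of poly(A) selection in the course of histone RNA was not tested. Fewer cells in cycle and less histone RNA per cell cannot be told apart in bulk RNA.

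**Figure D1:**
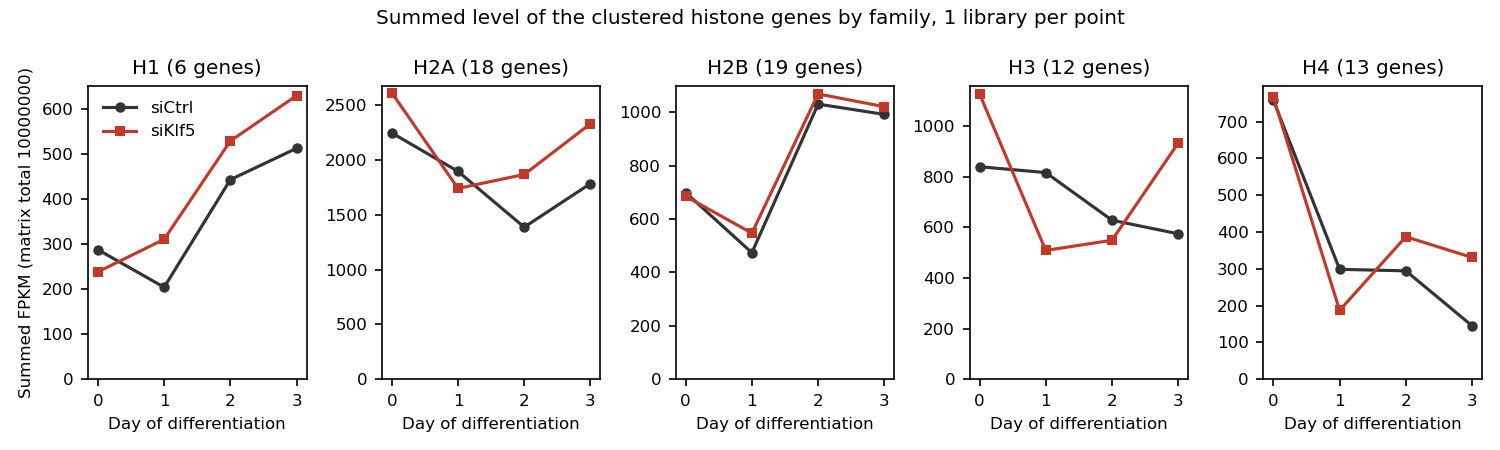
Summed FPKM (y axis, from 0, each family on its own scale) of all rows of the clustered histone genes of each family against day of differentiation, 1 library per point. H4 falls from 758 and 766 on day 0 to 145 and 331 on day 3, whereas H1 and H2B end above their day 0 levels.

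The change with time was tested in 1 additive model with a term for the siRNA and a term for the day, fitted by limma to log2(FPKM + 1) of the 14312 transcripts whose mean reached 1 FPKM, with Benjamini-Hochberg adjustment over all of them at 0.05. The model takes its error from how far the siCtrl and siKlf5 series depart from parallel courses, with 3 residual degrees of freedom. limma moderates this error with that of other transcripts. It is not an error between replicates. On day 3 against day 0, 6 of the 64 members were higher, where 13.0% of all transcripts were, and 14 were lower, where 18.0% were. The shares of members, 9.38% and 21.9%, were thus near those of all transcripts. The median change of the members was -0.85 on the log2 scale against -0.08 for all transcripts. Among all transcripts, fewer were called lower whichever 1 library was left out, and fewest without a library of day 0 or day 3. The number of members called lower rested on single libraries. It was 0 without the siCtrl library of day 0 (10 at an unadjusted p under 0.05), 1 without siCtrl day 3, 3 without siKlf5 day 0, 9 without siCtrl day 2, siKlf5 day 2 or siKlf5 day 3, 17 without siCtrl day 1 and 18 without siKlf5 day 1, whereas the number called higher stayed between 4 and 7. By direction alone, 36 members were lower on day 3 with both siRNAs, where 43.0% of all transcripts were, and 13 were higher with both, where 32.1% were.

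The members that rose were 1 H1 gene, 3 H2A genes and 2 H2B genes. Among all transcripts 13.0% rose. Hist1h2bc, an H2B gene, was at 99.3, 146, 354 and 394 FPKM in siCtrl cells and at 119, 180.2, 338 and 345 in siKlf5 cells. Both libraries of days 2 and 3 lay well above both of day 0. The change from day 0 to day 3 was 1.75 ± 0.15 (SE) on the log2 scale (limma, adjusted p = 7.9e-05), and this call held in each of the 17 alternative fits of this gene. Hist1h1c, the clustered H1 gene with the highest level here, was at 186, 190.1, 376 and 470.3 FPKM in siCtrl cells and at 129, 271, 457 and 532 in siKlf5 cells. The day 3 libraries were again the highest of each series, and the change was 1.68 ± 0.21 (limma, adjusted p = 0.000641). Hist2h2aa2, an H2A gene, was at 229, 268, 373 and 536 FPKM in siCtrl cells and at 165, 303, 479 and 530.0 in siKlf5 cells. Its level was in rising order of day in each series, and the change was 1.45 ± 0.18 (limma, adjusted p = 0.000587). Hist2h2aa1, which shares these reads, gave 1.44. Hist3h2a, the H2A gene of the Hist3 cluster, was at 89.6, 83.4, 126 and 188 FPKM in siCtrl cells and at 38.8, 90.6, 119 and 104 in siKlf5 cells. Its 2 day 3 values lay above both day 0 values, by 1.23 ± 0.30 (limma, adjusted p = 0.0146). Hist1h2bg, an H2B gene, was at 72.8 and 81.3 FPKM on day 0 and at 145 and 128 on day 3 in siCtrl and siKlf5 cells. The change was 0.82 ± 0.17 (limma, adjusted p = 0.00736). The call for Hist1h2bg was lost without siCtrl day 0, siCtrl day 3 or siKlf5 day 3, and that for Hist3h2a without siCtrl day 2, siCtrl day 3, siKlf5 day 0, siKlf5 day 2 or siKlf5 day 3.

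**Figure D2:**
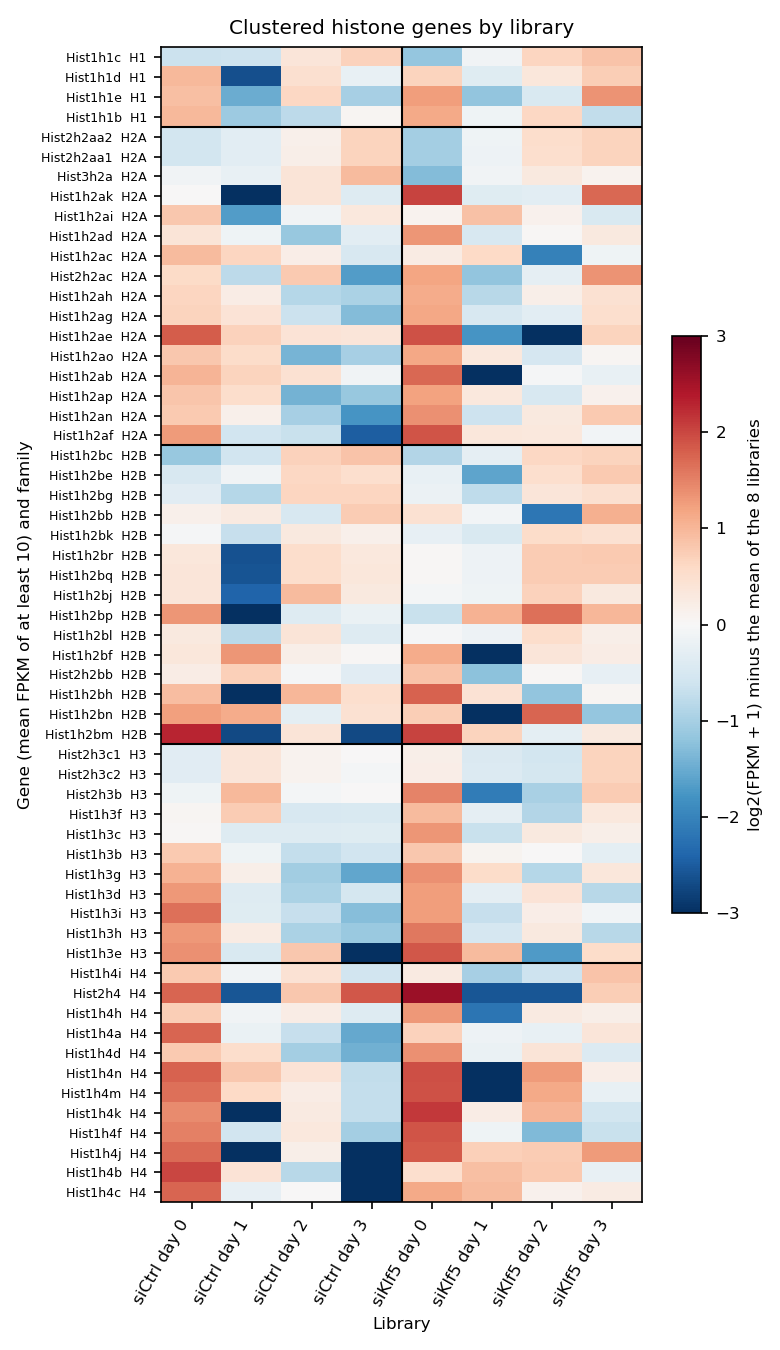
log2(FPKM + 1) of the 58 genes with a mean of at least 10 FPKM (rows, grouped by family and ordered by change to day 3) in each library (columns), minus the gene's mean over the 8 libraries, with the scale cut at 3 in each direction. Red cells stand above the gene's mean and blue below, so that the H4 rows are red in both day 0 columns, whereas the top rows of H1, H2A and H2B are blue there and red on days 2 and 3.

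The members that fell were 5 of the 13 H4 genes, 5 of 12 fitted H3 genes, 3 of 17 H2A genes and 1 of 17 H2B genes. All 14 lie in the Hist1 cluster, which holds 51 of the 64 fitted genes. Among all transcripts 18.0% fell. Hist1h3h, an H3 gene, was at 95.4, 45.0, 19.0 and 17.1 FPKM in siCtrl cells and at 115, 26.3, 46.7 and 20.7 in siKlf5 cells. Both day 0 libraries were the highest, and the change to day 3 was -2.42 ± 0.42 (limma, adjusted p = 0.00309). The other H3 genes that fell, named here because they passed the test, were Hist1h3i, Hist1h3d, Hist1h3g and Hist1h3b, with changes from -2.14 to -1.23. Hist1h2af, an H2A gene, was at 68.9, 18.4, 17.3 and 4.20 FPKM in siCtrl cells and at 106, 35.5, 35.4 and 26.4 in siKlf5 cells. Each siKlf5 value lay above the siCtrl value of its day, and the day 0 pair lay above all others, with a change of -2.86 ± 0.43 (limma, adjusted p = 0.00165). Hist1h2ap, the most abundant member to fall, was at 546, 448, 115 and 139 FPKM in siCtrl cells and at 718, 384, 222 and 338 in siKlf5 cells. It was lowest on day 2 in each series, and the change to day 3 was -1.53 ± 0.29 (limma, adjusted p = 0.00528). Hist1h2ao, with the same reads, gave -1.44.

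Among the H4 genes, Hist1h4d was at 54.3, 44.9, 14.7 and 10.7 FPKM in siCtrl cells and at 81.2, 26.7, 40.9 and 22.9 in siKlf5 cells. The 2 day 3 values lay below the 2 day 0 values, with a change of -2.01 ± 0.47 (limma, adjusted p = 0.0129). Hist1h4c was at 53.3, 12.6, 15.2 and 0 FPKM in siCtrl cells and at 34.6, 30.2, 16.6 and 18.0 in siKlf5 cells. Its large fitted change, -3.33 ± 0.97 (limma, adjusted p = 0.0316), includes the 0 of the siCtrl library of day 3 and was -1.33 without that library. Hist1h4b, at 44.3 and 15.0 FPKM on day 0 and at 0 and 8.74 on day 3, and Hist1h2bm, an H2B gene at 30.7 and 25.6 on day 0 and at 0 and 6.98 on day 3, were also at 0 in that library. None of these 3 calls held with a pseudocount of 0.1, and each was lost without any of at least 7 of the 8 libraries in turn. Of the other falls described, that of Hist1h2af was lost without siCtrl day 0, that of Hist1h2ap without siCtrl day 0, siCtrl day 3 or siKlf5 day 0, and those of Hist1h3h and Hist1h4d without any 1 library of day 0 or day 3. Hist1h4f and Hist1h4a, named because they passed, changed by -2.55 and -1.81. The H4 gene with the highest level, Hist1h4n, was at 171, 88.0, 66.3 and 29.5 FPKM in siCtrl cells and at 191, 0, 122 and 56.8 in siKlf5 cells, and did not pass the test (-2.11 ± 1.52). Its 0 on siKlf5 day 1 was shared by Hist1h4m, whose reads overlap with it. Hist1h4i was at 80.1 and 55.9 FPKM on day 0 and at 30.5 and 83.7 on day 3, so the 2 siRNA series went opposite ways and the change, -0.39 ± 0.53, did not pass.

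**Figure D3:**
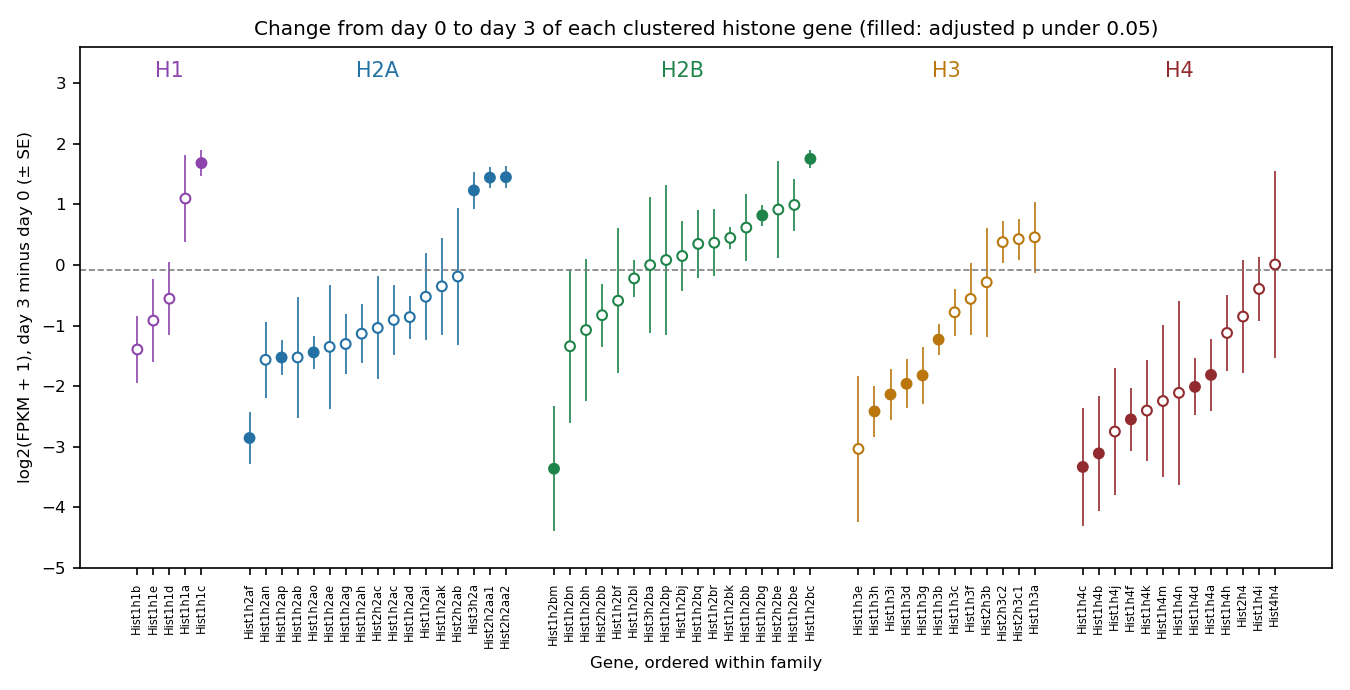
Change in log2(FPKM + 1) from day 0 to day 3 (y axis) of the 64 fitted genes by family, with the standard error of the additive fit, and filled where the adjusted p was under 0.05. The dashed line is the median of all 14312 transcripts, -0.08; the filled H4 and H3 points all lie below it and the filled H1 point above it.

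The median change to day 3 differed between families and clusters. In the Hist1 cluster the median change to day 3 was -2.24 for the 11 H4 genes, -1.82 for the 9 H3 genes, -1.33 for the 12 H2A genes and 0.25 for the 14 H2B genes. All 12 of those H2A genes were lower on day 3 with both siRNAs, as were 8 of the 9 H3 genes and 10 of the 11 H4 genes, where 43.0% of all transcripts were. Of the 14 H2B genes, 5 were higher with both siRNAs and 4 were lower. In the Hist2 cluster none of the 10 genes had fallen by day 3 by the test, where 18.0% of all transcripts had. By direction alone, 5 of the 10 were higher with both siRNAs and 1 was lower, where 32.1% and 43.0% of all transcripts were. The 10 include Hist2h2aa1 with Hist2h2aa2 and Hist2h3c1 with Hist2h3c2, which share reads. The H3 genes of this cluster included Hist2h3c2, at 164, 269, 223 and 200.1 FPKM in siCtrl cells and at 237, 156, 143 and 330.1 in siKlf5 cells. These values crossed between the series and the change, 0.38 ± 0.35, did not pass. Hist2h3b stood at 37.7 and 119 FPKM on day 0 and at 42.0 and 71.6 on day 3, with a change of -0.28 ± 0.90. These are counts and medians over related genes, and no test of the difference between clusters or families was made.

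Of the fitted H1 genes 1 rose and none fell, where 13.0% and 18.0% of all transcripts did. Hist1h1c rose, whereas Hist1h1e, at 35.9 and 45.9 FPKM on day 0 and at 8.77 and 48.7 on day 3, Hist1h1d, at 35.5 and 28.9 and then at 15.1 and 30.3, and Hist1h1b, at 27.6 and 31.1 and then at 14.2 and 7.76, did not pass the test. Only for Hist1h1b of these 3 did both day 3 values lie below both day 0 values. Hist1h1a, with a mean under 10 FPKM, gave a change of 1.10 and did not pass either.

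Some of the genes are annotated with a longer transcript. In GENCODE vM1, on the same build, 18 of the genes have a transcript that ends at least 100 bases past the end of the table's model. Among them are Hist1h1c (835 bases), Hist1h2bc (7821 bases), Hist3h2a (1482 bases) and Hist1h2bg (150 bases). Only the ends of transcripts were compared, not their exons, so whether a longer transcript holds the stem-loop was not checked. For Hist1h4a, also among them, no stem-loop was found near the end of the model. Of the 17 such genes among the fitted genes with 1 copy, 4 rose, 2 fell and the median change was -0.56. Of the 38 without, none rose, 10 fell and the median was -1.13. Among all transcripts 13.0% rose and 18.0% fell, with a median of -0.08. Hist2h2be, whose own model already holds AATAAA before its end and no stem-loop, counts among the 38. The limit to 1 copy leaves out Hist2h2aa1 and Hist2h2aa2, which rose and have no such longer transcript. No test was made, since copies are related. The table counts only reads inside the shorter models, so whether the reads of the 4 rising genes came from tailed, longer transcripts was not tested.

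Many H2A and H2B genes lie head to head, with starts close together on opposite strands, and share the stretch between them. 11 such pairs within 500 bases were found, of which 9 had both genes fitted. In 7 of these 9 the H2B gene changed more towards higher values than its H2A partner with both siRNAs, and in 1 the reverse held. The Hist1 families as a whole differ in the same direction, with medians of 0.25 for H2B and -1.33 for H2A. Pairs were not compared with unpaired genes, so the count shows nothing particular to pairs. Partners were compared within a library, so their difference hardly depends on how libraries were scaled. Hist1h2ac, the H2A partner of Hist1h2bc across 239 bases, was at 39.9, 32.2, 23.4 and 14.1 FPKM in siCtrl cells and at 24.3, 31.0, 4.25 and 18.5 in siKlf5 cells. It was thus lower on day 3 in each series (-0.91 ± 0.57, not past the test), whereas Hist1h2bc rose. The gap between the partners' changes was 3.41 in siCtrl cells and 1.91 in siKlf5 cells. Hist1h2ae and Hist1h2bg, 179 bases apart, gave -1.35 ± 1.03, not past the test, and 0.82 ± 0.17. Hist1h2ah and Hist1h2bk, 177 bases apart, gave -1.13 ± 0.49 and 0.45 ± 0.19, neither past the test. The pair that went the other way was Hist1h2ak and Hist1h2bn, with mean levels of 11.9 and 20.4 FPKM and values of -0.35 ± 0.80 and -1.34 ± 1.27, neither past the test.

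**Figure D4:**
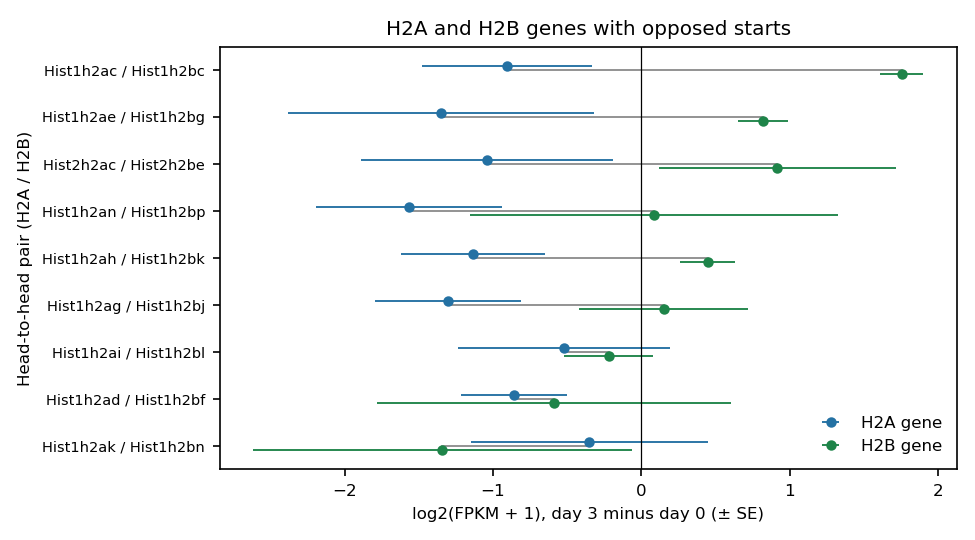
Change in log2(FPKM + 1) from day 0 to day 3 (x axis, ± SE) of the H2A gene and the H2B gene of each of 9 head-to-head pairs. The H2B point lies to the right of its H2A partner in all but the lowest pair, Hist1h2ak with Hist1h2bn, and the widest gap is that of Hist1h2ac (-0.91) and Hist1h2bc (1.75).

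The octamer ATTTGCAT is the site read by the factor Oct-1 (Pou2f1) and is a classical element of H2B promoters. It was searched on both strands in the RefSeq promoters, 250 bases before to 50 after the start, on GRCm38.p6, of which 62 members had 1. It lay in 13 of the 62 (21.0%), against 1.75% of all 27025 promoters, with 6 among 16 of H2B, 7 among 18 of H2A and none among those of H1, H3 or H4. Partners share sites, so these counts are not independent. The sites are shown for 4 H2B genes that differ in how they changed, with the octamer in capitals, on the strand of the gene.
Hist1h2bg: ttgagtcccttATTTGCATagaacctctat
Hist1h2bk: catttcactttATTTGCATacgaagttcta
Hist2h2bb: tgtgaaacctcATTTGCATacaagctctat
Hist1h2bm: ctctcgtctctATTTGCATaacagcgtgta
On GRCm38.p6 these are chr13:23571330-23571359, chr13:22035780-22035809, chr3:96269641-96269670 and chr13:21722008-21722037, all on the plus strand and ahead of the annotated start. Of these, Hist1h2bg rose by 0.82, Hist1h2bk gave 0.45 and Hist2h2bb -0.83, neither past the test, and Hist1h2bm fell by 3.36, so genes with the octamer went different ways. Hist1h2bk was at 82.8, 51.8, 104 and 94.2 FPKM in siCtrl cells and at 70.9, 61.9, 124 and 117 in siKlf5 cells, lowest on day 1 in each. The octamer's presence in a promoter is a match of letters and says nothing of binding. The letters CCAAT were in 85.5% of the members' promoters against 37.9% of all, and TATAAA in 56.5% against 14.2%. CCAAT was found in all the H1, H2A, H2B and H3 promoters but in 3 of 12 of H4.

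Of genes outside the clusters, those of DNA synthesis fell together. All 28 of a list of replication genes were lower on day 3 than on day 0 by the test, with a median of -1.56. Among all transcripts 18.0% were lower and 13.0% higher. Rrm2, a subunit of ribonucleotide reductase, went from 1235 and 1309 FPKM on day 0 to 476 and 501 on day 3. The replacement and variant histones had 6 of 11 fitted genes lower and none higher, with a median of -0.67. H2afz, which codes for H2A.Z, fell from 1778 and 2057 FPKM to 887 and 874, whereas H3f3a, at 1247 and 1246 on day 0 and 1515 and 1348 on day 3, and the linker histone gene H1f0, at 838 and 670.2 and then 854 and 813, did not pass. In this RNA pulled down with oligo-dT beads, H3f3a was thus several times higher per kilobase than any clustered H3 gene. How much clustered H3 mRNA without a tail was lost cannot be told, so total H3 mRNA levels cannot be compared. Of histone chaperones, 13 of 22 fell and none rose, with a median of -0.72. Nap1l1, a carrier of H2A and H2B, went from 1644 and 1782 FPKM to 942 and 887.

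Genes for processing and turnover of histone mRNA were described as well. Their list is not limited to the stem-loop ends, since it also holds general polyadenylation factors such as Pabpn1, Wdr33 and Fip1l1. Of its 28 genes, 15 fell and none rose by day 3, with a median of -0.56. Among all transcripts 18.0% fell and 13.0% rose. Slbp, which binds the stem-loop, was at 318, 159, 184 and 134 FPKM in siCtrl cells and at 415, 183, 239.8 and 167 in siKlf5 cells. Both day 0 libraries were the highest, and the change to day 3 was -1.28 ± 0.11 (limma, adjusted p = 0.000108). Of 13 genes for transcription of histone genes, 6 fell and none rose, with a median of -0.51. Ccna2, the S phase cyclin A, went from 583 and 663 FPKM on day 0 to 194 and 243 on day 3. Npat, the coactivator of histone genes, was at 26.6 and 29.5 FPKM on day 0 and 25.6 and 28.4 on day 3, a change of -0.05 ± 0.32.

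Days 1 and 2 gave a similar picture with fewer rises on day 1. On day 1 against day 0, 12 members were lower, where 10.3% of all transcripts were, and 1, Hist1h2bc, was higher, where 6.76% were. The median was -1.22, or -1.17 with the genes at 0 in both day 1 libraries set to a floor of 3 reads per library. The lower ones included Hist2h4, at 0 in both day 1 libraries and 4.35-fold lower than on day 0 against that floor. The floor lies under the 6 reads that 1 fragment can add, so this ratio is not a lower bound. Hist2h4 had only 14 (siCtrl) and 23 (siKlf5) reads on day 0. Without the siCtrl or the siKlf5 library of day 0 none were called lower on day 1 (10 and 17 at an unadjusted p under 0.05), and without the others between 2 and 10. The number higher on day 1 was 1 without siCtrl day 0 and 0 without any 1 of the other 7 libraries (0 to 6 at an unadjusted p under 0.05). The day 1 libraries were the shallowest, and 15 and 12 members were at 0 in them, against 4 and 7 on day 0. On day 2, 12 were lower, where 12.1% of all transcripts were, and 6 were higher, where 11.7% were, with a median of -1.004. Without siCtrl day 0 or siKlf5 day 0 the number lower on day 2 was 0 (11 and 10 at an unadjusted p under 0.05), without siCtrl day 2 or siKlf5 day 2 it was 1, and without siCtrl day 3 or siKlf5 day 3 it was 5. The number higher on day 2 was 1 without siKlf5 day 2, 3 without siCtrl day 2 or siKlf5 day 0, and otherwise 4 to 7. Those higher on day 2 were the same 6 genes as on day 3. Among all transcripts too, fewer were called in each direction for day 1 and for day 2 whichever 1 library was left out.

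Whether Klf5 knockdown changed these genes was asked with the siRNA term, the mean over the 4 days of the difference between the 2 libraries of a day. No member passed in either direction by limma (8 higher and 1 lower at an unadjusted p under 0.05, where 4.16% and 5.74% of all transcripts were). Among all transcripts 0.00699% were called higher and 0.0629% lower. The median of the members was 0.33 against 0.01 for all transcripts. The largest excess was that of Hist1h4j, at 29.5, 0, 9.60 and 0 FPKM in siCtrl cells and at 32.5, 14.5, 14.9 and 21.6 in siKlf5 cells. Each siKlf5 value was higher than that of siCtrl on the same day, with a difference of 2.29 ± 0.74 (limma, adjusted p = 0.373) that leans on 2 zeros. Hist1h2ak followed with 1.54 ± 0.56 and Hist1h2bp with 1.503 ± 0.88, and the largest deficits were those of Hist1h2ae (-1.65 ± 0.73), Hist1h2bn (-1.26 ± 0.90) and Hist1h4n (-1.13 ± 1.08). A difference in the change per day between the siRNAs was called for 0 members by limma (4 higher and 0 lower at an unadjusted p under 0.05, where 0.915% and 1.38% of all transcripts were) and for 0.0% of all transcripts in either direction.

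Day by day, where no test is possible with 1 library each, the members spread more widely than other transcripts. On day 0, 14 members were over 1.5-fold higher in siKlf5 cells and 10 lower, where 8.18% and 10.0% of all transcripts were. On day 1 it was 20 and 19 (15.6% and 10.3% of all), on day 2 it was 25 and 15 (6.78% and 11.6%), and on day 3 it was 30 and 7 (9.9% and 11.6%). The median member had 23.0 reads per library, and the part of low counts in this spread was not tested. The exact 95% interval for the ratio of the 2 libraries, computed on reads divided by 6 for counting error only, lay above 0 for 1, 2, 2 and 7 members on days 0 to 3 and below 0 for 0, 2, 2 and 0. These counts cover the 64 fitted members. Intervals were not computed for genes outside the clusters, so no share of all transcripts stands beside them. Some intervals at 95% can miss 0 by counting error alone. On day 3 the 7 were Hist1h2ap with Hist1h2ao, Hist2h3c1 with Hist2h3c2, Hist1h2ag, Hist1h2an and Hist1h1e. Hist1h2ap and Hist1h2ao share reads, as do Hist2h3c1 and Hist2h3c2, so the 7 are not separate results. The 2 above 0 on day 1 were Hist1h2bq with Hist1h2br, which share reads too. On day 2 the 2 above 0 were Hist1h2ap with Hist1h2ao, and the 2 below were Hist2h3c1 with Hist2h3c2. For Hist1h2ap the log2 ratio was 1.28 (interval 0.51 to 2.10) on day 3 and 0.95 (0.18 to 1.73) on day 2, whereas for Hist1h2bc it was -0.19 (-0.76 to 0.38) on day 3.

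On day 3 the siKlf5 to siCtrl ratio of the family sums was 2.28 for H4, 1.62 for H3, 1.31 for H2A, 1.23 for H1 and 1.03 for H2B. On day 2 it was 1.31 for H4, 0.874 for H3 (1.002 with 1 row of each pair), 1.35 for H2A, 1.19 for H1 and 1.04 for H2B. On day 1 it was 0.626 for H4 and 0.623 for H3 (0.888 and 0.645 with 1 row of each pair), so the families did not keep 1 direction over the days. Of the RNAs without a tail, 3 were higher in the siKlf5 library on days 2 and 3. Rmrp was at 989, 965, 266 and 447 FPKM in siCtrl cells and at 918, 914, 745 and 807 in siKlf5 cells, with ratios of 2.80 on day 2 and 1.81 on day 3. Rpph1 had ratios of 2.67 and 2.27, and the ribosomal precursor Rn45s of 1.67 and 1.57, where its day 0 and day 1 ratios were 1.303 and 0.823. On days 0 and 1 the ratios of Rmrp and Rpph1 lay between 0.929 and 1.05. The 114 small nucleolar and Cajal body RNAs, most of them cut from introns, had ratios of 1.01, 1.73, 1.04 and 1.06 on days 0 to 3. The part of poly(A) selection in the excess of histone RNA on day 3 was not tested.

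**Figure D5:**
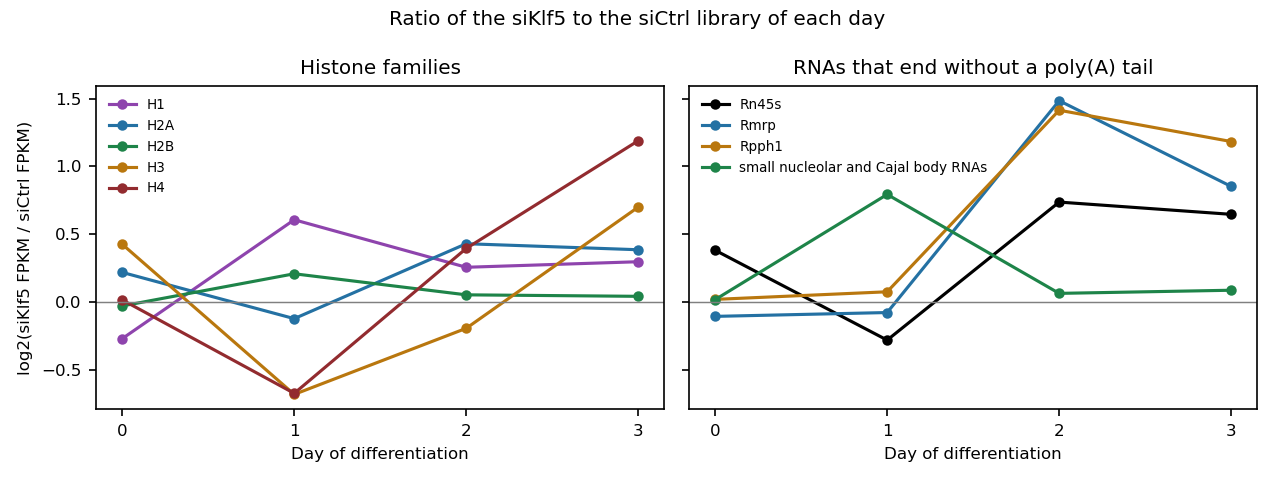
log2 ratio of the siKlf5 to the siCtrl library of each day (y axis, shared) for the summed histone families (left) and for RNAs that end without a poly(A) tail (right), 1 library of each siRNA per point. H4 and H3 stand highest among the families on day 3, at ratios of 2.28 and 1.62, where Rpph1 (2.27), Rmrp (1.81) and Rn45s (1.57) are raised as well.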

How the data were processed

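C2C12 RNA pulled down with oligo-dT beads was sequenced from both ends in 8 libraries, 1 per siRNA and day. The authors aligned reads to mm9 with STAR and, per the file headers, counted them on RefSeq exons with HOMER over both strands, keeping at most 3 reads per position and 1 transcript per gene. The FPKM values they deposited are scaled to a matrix total of 10000000. The versions used for the RNA-seq files are not given in the sources used here. Deposited log2 columns hold an added random part and were not used, and 1 of them has no day in its name. Reads were recovered from FPKM and exon length. All of the 5000 to 6677 low values checked per library were whole within 0.1.

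Members and lists were chosen with earlier results of these data known. log2(FPKM + 1) of transcripts with a mean of at least 1 was fitted with limma 3.58.1 (R 4.3.3, trend in the prior variance), with terms for siRNA and day, or siRNA, day as a number and their product for the change per day, and Benjamini-Hochberg adjustment. Labels give no replicates, so the error behind the p-values is departure from additivity, or from straight lines for the change per day. limma moderates it with the error of other transcripts. Ratios of 2 libraries have exact Clopper-Pearson intervals (95%) on reads over 6, as a fragment read at both ends adds up to 6 under the limit of 3. The genes named were the 4 most abundant per family, the 5 largest rises and 5 largest falls to day 3 and the 3 largest siKlf5 differences in each direction among those with a mean of at least 10, the 4 most abundant of each other list, Slbp, Npat and Klf5, and others said to be named for passing the test. Genes named to fill a pair, a cluster or a shown sequence were chosen after their values were seen. Sequences came from the mm9 genome and, for promoters, RefSeq on GRCm38.p6. Alternatives were other pseudocounts, filters, scalings, models and libraries left out, and, chosen after seeing the data, 1 row of each pair that shares reads. The fits were tested on simulated data. Python 3.11.15, pandas 2.3.3, scipy 1.17.1 and pysam 0.24.0 were used.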

Additional observations from a re-analysis of the deposited data

How the results depend on the processing

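The counts of members called rest on little: few reads per gene, 3 residual degrees of freedom and no replicates. The median changes over members kept their direction under each alternative run. Without a filter, limma called 1 member higher and none lower on day 3 (6 and 10 at an unadjusted p under 0.05). Among all 24016 transcripts that fit called 907 higher and 1236 lower on day 3. The main fit called 1865 and 2579 of 14312. Of the members the fit without a filter called 1 higher and 0 lower for day 2 (6 and 10 unadjusted). For day 1 it called 0 in either direction (1 and 11 unadjusted). Without a trend in the prior variance 6 members were lower on day 3. On day 2 it was 2 higher and 3 lower, and 0 higher and 1 lower on day 1. Among all transcripts 1391 were higher and 1535 lower on day 3 without the trend. On day 1, 3 members were higher with upper-quartile scaling, 3 with median-ratio scaling and 5 with day as a number. Without a siRNA term 7 members were lower on day 1. With a cutoff of 2-fold, 3 members were higher and 7 lower in siKlf5 cells for day 0, 15 and 12 for day 1, 14 and 10 for day 2, and 22 and 3 for day 3. The share of all transcripts past 2-fold was not computed. The causes were not tested. With 1 row of each pair that shares reads, chosen after seeing the data, 5 rose and 13 fell by day 3. Upper-quartile scaling moved the median of all transcripts on day 1 from -0.08 to 0.04, and the share of higher among all calls from 39.6% to 58% on day 1 and from 42% to 53.1% on day 3, and median-ratio scaling to 54.2% and 53.9%. No named gene changed direction with scaling.

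Leaving out 1 library at a time, with the lone sample of its day assumed to vary like the others, gave 0 to 1 higher and 0 to 10 lower members for day 1. For day 2 it gave 1 to 7 higher and 0 to 12 lower, and for day 3 4 to 7 higher and 0 to 18 lower. The median change lay between -1.55 and -0.74 for day 1, -1.004 and -0.71 for day 2, and -1.10 and -0.49 for day 3. It lay between 0.09 and 0.42 for the siRNA term, and between 0.011 and 0.69 for the change per day, the highest without siKlf5 day 0. The siRNA term and the change per day gave 0 calls in each case. Among genes that had not passed, the day 3 change turned direction for Hist1h1e (range -2.16 to 0.33, highest without siCtrl day 3), Hist1h1d (-1.21 to 0.10, highest without siCtrl day 0), Hist2h3c2 (-0.13 to 0.89, below 0 without siCtrl day 0 or siKlf5 day 3), Hist2h3c1 (-0.049 to 0.91, lowest without siKlf5 day 3), Hist2h3b (-1.64 to 1.07, above 0 without siCtrl day 3 or siKlf5 day 0), Hist1h4i (-1.52 to 0.73, highest without siCtrl day 3), Hist1h2ak (-0.74 to 0.038, highest without siCtrl day 3) and Hist1h2bp (-2.25 to 2.42, below 0 without siCtrl day 3 or siKlf5 day 0). No paired analysis was possible because the labels give no replicate numbers, and day already serves as the block for the siRNA term.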
